A study of Mus musculus with 12 samples.

Results

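The genes of iron uptake, storage and export were examined in C2C12 myotubes, cells formed by fusion of a mouse myoblast line. The set held 8 genes chosen by symbol for their known role in iron handling, of 55487 genes listed, 29620 with any count and 14175 that passed the filter on low counts and were tested. All 8 passed the filter, with 304 to 18447 counts per library, and each is annotated as protein coding. Myotubes had been differentiated for 5 days in 2% horse serum. They were then cultured for 24 h with either 4% horse serum (6 libraries, numbered 1 to 6) or 4% STEM (6 libraries, numbered 7 to 12), and bulk RNA was sequenced. STEM contains no cells and holds the factors that human embryonic stem cells secrete once their differentiation has begun. Because STEM took the place of horse serum, the addition of STEM and the removal of serum cannot be told apart. All libraries come from 1 cell line and the labels do not name separate cultures, so p-values measure the spread between these libraries, which may be technical.

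Cells take up iron bound to transferrin through the transferrin receptor (Tfrc), reduce it in the endosome with the ferrireductase Steap3 and carry it into the cytosol with the divalent metal transporter Slc11a2. Iron that is not used is stored in ferritin, a shell built from heavy (Fth1) and light (Ftl1) chains, and leaves the cell through ferroportin (Slc40a1). When iron is scarce, the iron regulatory proteins encoded by Aco1 and Ireb2 bind a hairpin in messenger RNA, the iron responsive element, which blocks translation when it lies before the coding sequence and protects the transcript from decay when it lies after it. Muscle holds much iron in myoglobin and in the iron-sulfur and heme proteins of its mitochondria.

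The iron responsive elements are shown first because their place in the transcript separates the iron genes known to be controlled by decay from those known to be controlled by translation, and RNA levels measure only the amount of transcript. The pattern searched was a C, 5 bases, the loop CAGTGN and 5 bases able to pair with the first 5 (G-T pairs allowed), read on the transcript strand of the GENCODE transcripts of GRCm38. The loop is in capitals. The C, the 5 bases on each side of the loop and further flanking bases are in lower case. Tfrc held 4 matches in its 3′ UTR on chromosome 16 (plus strand), and Fth1 (chromosome 19, plus strand), Ftl1 (chromosome 7, minus strand) and Slc40a1 (chromosome 1, minus strand) each held 1 match in the 5′ UTR.
Tfrc, chr16:32631219-32631248: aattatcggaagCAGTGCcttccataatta
Tfrc, chr16:32631598-32631627: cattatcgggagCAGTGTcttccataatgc
Tfrc, chr16:32631663-32631692: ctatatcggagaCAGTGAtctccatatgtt
Tfrc, chr16:32631710-32631739: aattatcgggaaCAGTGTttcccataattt
Fth1, chr19:9982732-9982761: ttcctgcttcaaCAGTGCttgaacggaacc
Ftl1, chr7:45459778-45459807: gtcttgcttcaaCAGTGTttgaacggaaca
Slc40a1, chr1:45925464-45925493: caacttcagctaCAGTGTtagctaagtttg

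The matches in the ferritins and ferroportin lay close to the transcript start. Positions are those of the first C of the pattern, and the printed stretches also hold flanking bases before and after the pattern. The match began at base 93 of the 929 bases of the first-listed Fth1 transcript, at base 84 of 968 in Ftl1 and at base 96 of 3370 in Slc40a1. The coding sequences of these transcripts began at bases 225, 254 and 320. In Tfrc the 4 matches began between bases 3321 and 3812 of 4890, after a coding sequence that ended at base 2432. Slc11a2, Steap3, Aco1 and Ireb2 held no match to these letters. A hairpin with another loop or an extra bulge in the stem would be missed, so no match does not show that a gene lacks the element. A match anywhere in the transcript was found in 4 of the 8 genes, in 3 of 92 other iron genes (3.26%) and in 294 of 21901 protein coding genes (1.34%), of which 31 had it in the 5′ UTR (0.142%) and 129 in the 3′ UTR (0.589%). A match describes the sequence and is not a measure of binding.

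**Figure D1:**
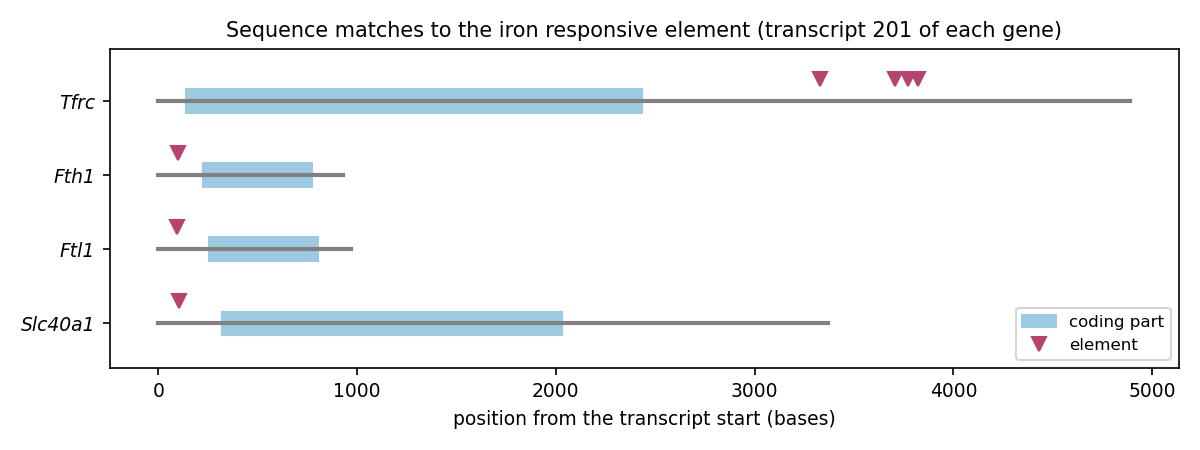
Position of the matches to the iron responsive element (triangles) along the first-listed transcript of Tfrc, Fth1, Ftl1 and Slc40a1, in bases from the transcript start, with the coding part as a thick bar. The 4 Tfrc matches lie after the coding part and the match of each of the other 3 genes lies before it.

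Library totals were 13285472 to 18254882 counts with horse serum and 14909485 to 24536264 with STEM. Horse serum library 6 stood apart, and the tests and counts of called genes are therefore given with and without it. In CPM (counts scaled to a common library size), it lay outside the range of the other 11 libraries for 5 of the 8 iron genes, against 37.1% of all genes tested. Library 6 was below the others for Tfrc and Slc11a2 and above them for Ftl1, Slc40a1 and Aco1. Of 8 myotube markers, among them Ckm, Acta1 and Mylpf, 7 were lowest in library 6, and Myog (850 CPM) lay inside the range of the others. Their summed level in library 6 was 7328 CPM, against 12675 to 13609 CPM in the other 5 horse serum libraries and 10291 to 12738 CPM with STEM. These markers did not move together under STEM. Group means were higher for Myh3 (1549 against 1259 CPM over all horse serum libraries) and Ckm (515 against 428 CPM). They were lower for Myh8 (246 against 585 CPM), Acta1, Mylpf, Myog, Tnnc2 and, slightly, Des. The 4 markers of unfused myoblasts or reserve cells (Pax7, Myf5, Cdh15 and Cd34) summed to 566 CPM in library 6. That sum was 443 to 491 CPM in the other 5 horse serum libraries and 538 to 592 CPM with STEM. Library 6 thus lay within the STEM range and the other 5 below it. Of the 4 markers, only Cdh15 had a higher group mean under STEM (481 CPM, against 349 CPM over all horse serum libraries). Group means were lower under STEM for Cd34 (47.5 against 79.7 CPM), Myf5 (13.5 against 18.1 CPM) and, slightly, Pax7 (32.4 against 33.3 CPM). The higher sum therefore rested on Cdh15 and was not shared by the other markers. The part of myotube and myoblast content in the results was not tested, and in bulk RNA fewer cells of a type and less RNA per cell cannot be told apart. Markers of macrophages and hepatocytes, which handle much iron, were near 0. The 6 macrophage markers summed to 2.31 to 5.35 CPM with horse serum and 4.31 to 5.77 CPM with STEM with Adgre1 at 0, and the 4 hepatocyte markers to at most 0.13 CPM with Alb, Ttr and Serpina1a at 0.

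The changes with STEM were small. Of the 8 iron genes, 2 were called at an adjusted p of 0.05 or less by edgeR's quasi-likelihood test, Slc11a2 higher (fold 1.12) and Ftl1 lower (fold 0.863), against 36.4% of all genes called, 18.9% higher and 17.4% lower. Without horse serum library 6, 6 of the 8 were called, Slc11a2, Steap3 and Aco1 higher and Tfrc, Fth1 and Ftl1 lower, against 50.8% of all genes, 26.3% higher and 24.5% lower. DESeq2 on all libraries called 4 of the 8, Slc11a2 and Ireb2 higher and Fth1 and Ftl1 lower, against 37.7% of all genes. In CPM, a full separation of the STEM from the horse serum libraries was seen for 1 of the 8, Ftl1, against 17.2% of genes. Without library 6 it was seen for 3 of the 8, Ftl1, Aco1 and Steap3, against 33.4%. The median log2 fold change of the 8 genes was 0.05, beside 0.01 over all genes tested.

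**Figure D2:**
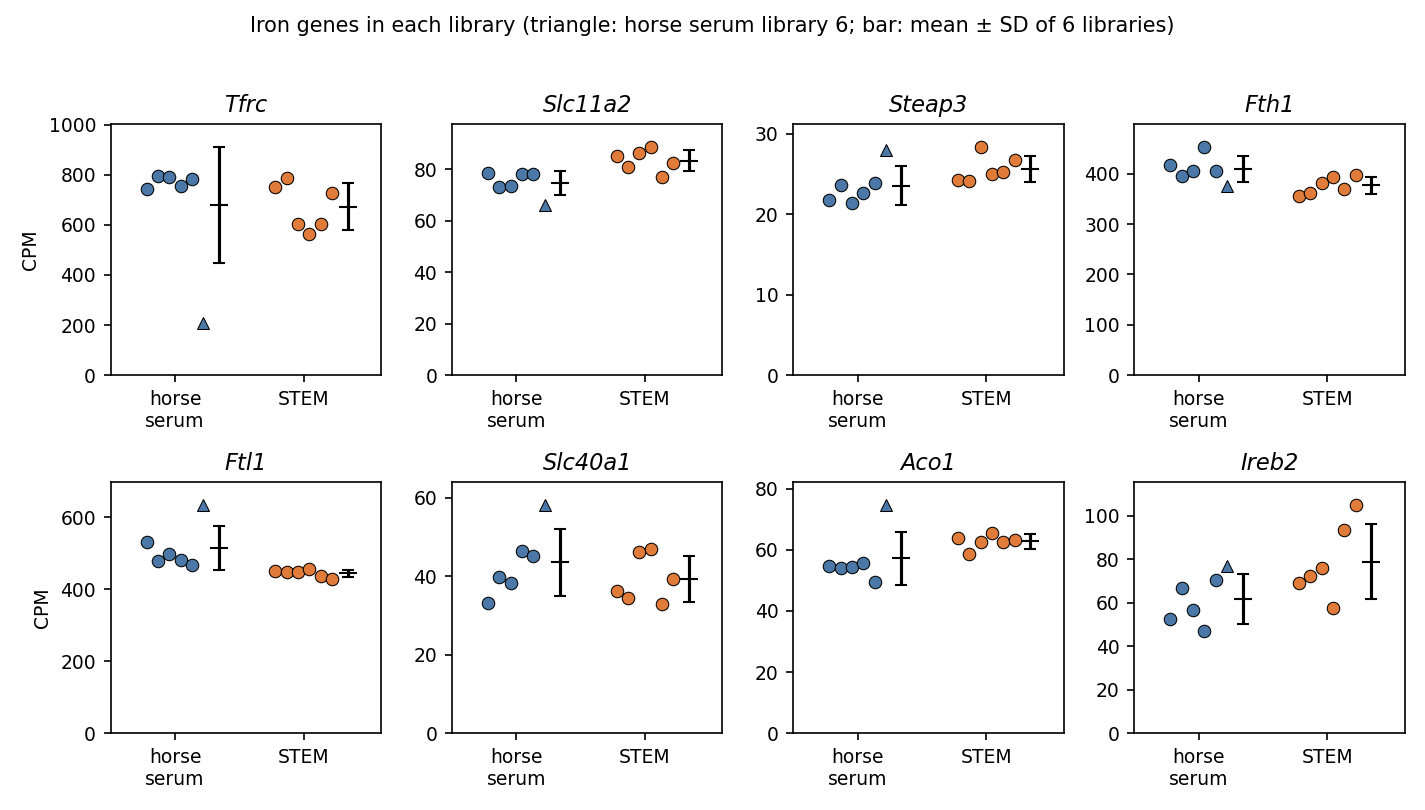
Level of each of the 8 iron genes in CPM (linear axes from 0) in the 6 horse serum and 6 STEM libraries, with horse serum library 6 as a triangle and the mean ± SD of each group beside its points. Library 6 lies far below the other libraries for Tfrc and above them for Ftl1, Slc40a1 and Aco1.

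Tfrc (ENSMUSG00000022797, chromosome 16, 32608920 to 32632794, plus strand), the receptor that brings transferrin-bound iron into the cell, was the uptake gene with the widest spread. Its level was 210, 769 and 794 CPM (lowest, median and highest) with horse serum and 563, 665 and 787 CPM with STEM. A single library made the horse serum range, since the other 5 lay between 743 and 794 CPM (773 ± 22.0, SD, n = 5) and library 6 alone was at 210 CPM. The STEM libraries fell on both sides of 700 CPM, with 752, 787 and 727 CPM in libraries 7, 8 and 12 and 602, 563 and 604 CPM in libraries 9, 10 and 11. Over all libraries the log2 fold change was -0.01 (standard error 0.27, 95% interval -0.60 to 0.57, edgeR, adjusted p = 0.976). Without library 6 Tfrc fell, by 0.20 on the log2 scale (standard error 0.080, 95% interval -0.37 to -0.03, edgeR, adjusted p = 0.0497), a call just inside the threshold. The exact permutation test of the mean log2 CPM (two-sided, smallest possible p 0.00216) gave 0.978 with all libraries and 0.0714 without library 6.

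Slc11a2 (ENSMUSG00000023030, chromosome 15, 100387898 to 100425072, minus strand), which moves ferrous iron out of the endosome, rose slightly with STEM. It was at 66.2, 75.7 and 78.4 CPM with horse serum and 76.9, 83.6 and 88.5 CPM with STEM. In CPM the groups touched only at their edges, and library 6 was the lowest of all 12. This placement depended on the scale. In TPM (counts scaled by gene length and then to a common total), library 6, at 25.6, lay inside the horse serum range of 24.2 to 26.3. All STEM libraries lay above that range, at 26.9 to 30.2 TPM. The log2 fold change was 0.16 (standard error 0.051, 95% interval 0.05 to 0.27, edgeR, adjusted p = 0.0219), with an exact permutation p of 0.00866. Without library 6 it was 0.13 (edgeR, adjusted p = 0.0173). The call was lost without STEM library 7 (0.15, edgeR, adjusted p = 0.0574).

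Steap3 (ENSMUSG00000026389, chromosome 1, 120190757 to 120272705, minus strand), the endosomal ferrireductase, had the lowest counts of the set. It was at 21.4, 23.2 and 28.0 CPM with horse serum and 24.1, 25.1 and 28.3 CPM with STEM. The highest horse serum value was again library 6, and the other 5 horse serum libraries, at 21.4 to 23.9 CPM, lay below every STEM library. The log2 fold change was 0.12 with all libraries (standard error 0.071, 95% interval -0.03 to 0.27, edgeR, adjusted p = 0.217) and 0.17 without library 6 (standard error 0.059, edgeR, adjusted p = 0.0198). The exact permutation test gave p = 0.0931 and 0.00433.

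Both ferritin chains had lower mean levels with STEM. Fth1 (ENSMUSG00000024661, chromosome 19, 9980598 to 9985098, plus strand), the chain that oxidizes iron as it enters the shell, was at 376, 406 and 453 CPM with horse serum and 355, 376 and 398 CPM with STEM. In CPM library 6 held the lowest horse serum value, and the other 5, from 396 to 453 CPM, overlapped the STEM libraries only at the edge. In TPM library 6 instead held the highest horse serum value, at 266.9, with the other 5 at 240.6 to 266.3. The log2 fold change was -0.12 (standard error 0.050, 95% interval -0.23 to -0.01) and did not pass in edgeR (adjusted p = 0.0793), while DESeq2 gave an adjusted p of 0.0414 and the exact permutation test, for this gene alone, p = 0.0216. Without library 6 it fell by 0.14 on the log2 scale (standard error 0.045, edgeR, adjusted p = 0.0122).

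Ftl1 (ENSMUSG00000050708, chromosome 7, 45457944 to 45459884, minus strand), the chain that aids mineral formation inside the shell, was the only iron gene of the set whose groups did not overlap in CPM with all libraries in. It was at 469, 490 and 634 CPM with horse serum and 429, 448 and 457 CPM with STEM. In CPM every STEM library lay below every horse serum library, and library 6 was the highest. In TPM the groups overlapped, at 734 to 1164 with horse serum and 680 to 758 with STEM. Ftl1 fell by 0.21 on the log2 scale (standard error 0.066, 95% interval -0.35 to -0.07, edgeR, adjusted p = 0.0201), with an exact permutation p of 0.00216, the smallest that this design allows. Without library 6 it fell by 0.14 (standard error 0.040, edgeR, adjusted p = 0.0055). Scaling by total counts only ended the call (edgeR, adjusted p = 0.0731).

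Both ferritin genes have processed copies elsewhere in the genome that could share reads. The 2 annotated copies of Fth1 with at least 85% identity summed to at most 5 counts in any library, at most 0.085% of the Fth1 count. The 16 copies of Ftl1 summed to 39 to 98 counts, 0.55 to 0.85% of the Ftl1 count. Counting of reads that match several places is not given in the sources used here, so reads of Ftl1 that match a copy may be missing from its count.

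The within-library balance of uptake to storage was described by the log2 ratio of Tfrc to the summed ferritin chains, which no scaling factor changes and for which no test was made. It was -0.57 ± 0.84 with horse serum and -0.30 ± 0.22 with STEM (SD, n = 6 each), with a lowest value of -2.27 in library 6. Without that library the horse serum ratio was -0.23 ± 0.092 (SD, n = 5), and its range of -0.35 to -0.14 lay inside the STEM range of -0.60 to -0.04. The ratio of Fth1 to Ftl1 CPM was 0.594 in library 6, 0.789 to 0.939 in the other horse serum libraries and 0.789 to 0.928 with STEM.

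Slc40a1 (ENSMUSG00000025993, chromosome 1, 45908068 to 45926523, minus strand), ferroportin, the iron exporter, was not called in either direction. It was at 33.3, 42.5 and 58.1 CPM with horse serum and 33.1, 37.7 and 47.0 CPM with STEM. The groups overlapped over most of their range, with library 6 the highest of all 12. The log2 fold change was -0.15 (standard error 0.13, 95% interval -0.43 to 0.12, edgeR, adjusted p = 0.379) and -0.05 without library 6 (95% interval -0.29 to 0.19, edgeR, adjusted p = 0.726). The exact permutation test gave p = 0.361.

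The regulators had higher mean levels with STEM. Aco1 (ENSMUSG00000028405, chromosome 4, 40143081 to 40198338, plus strand) encodes iron regulatory protein 1, which serves as the cytosolic aconitase when it carries an iron-sulfur cluster. It was at 49.6, 54.6 and 74.6 CPM with horse serum and 58.5, 63.0 and 65.6 CPM with STEM. Library 6 was the highest of all 12, and the other 5 horse serum libraries, at 49.6 to 55.7 CPM, lay below every STEM library. The log2 fold change was 0.13 with all libraries (standard error 0.080, 95% interval -0.04 to 0.30, edgeR, adjusted p = 0.212). Without library 6 Aco1 rose by 0.23 on the log2 scale (standard error 0.045, 95% interval 0.13 to 0.32, edgeR, adjusted p = 0.000358), and the exact permutation p went from 0.119 to 0.00216.

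Ireb2 (ENSMUSG00000032293, chromosome 9, 54863789 to 54912530, plus strand) encodes iron regulatory protein 2, which has no aconitase role and is itself degraded when iron is plentiful. It was at 47.0, 61.7 and 77.1 CPM with horse serum and 57.8, 74.2 and 105 CPM with STEM. The groups overlapped widely, and library 6 was the highest of the horse serum libraries. Its log2 fold change of 0.35 was the largest in size of the 8 genes but varied between libraries (standard error 0.15, 95% interval 0.02 to 0.68, edgeR, adjusted p = 0.0899). DESeq2 placed it just inside the threshold (0.35, adjusted p = 0.04996), and without library 6 edgeR gave 0.43 (adjusted p = 0.0599). Without STEM library 10, the lowest of the STEM group, edgeR called it higher (0.43, adjusted p = 0.0364).

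**Figure D3:**
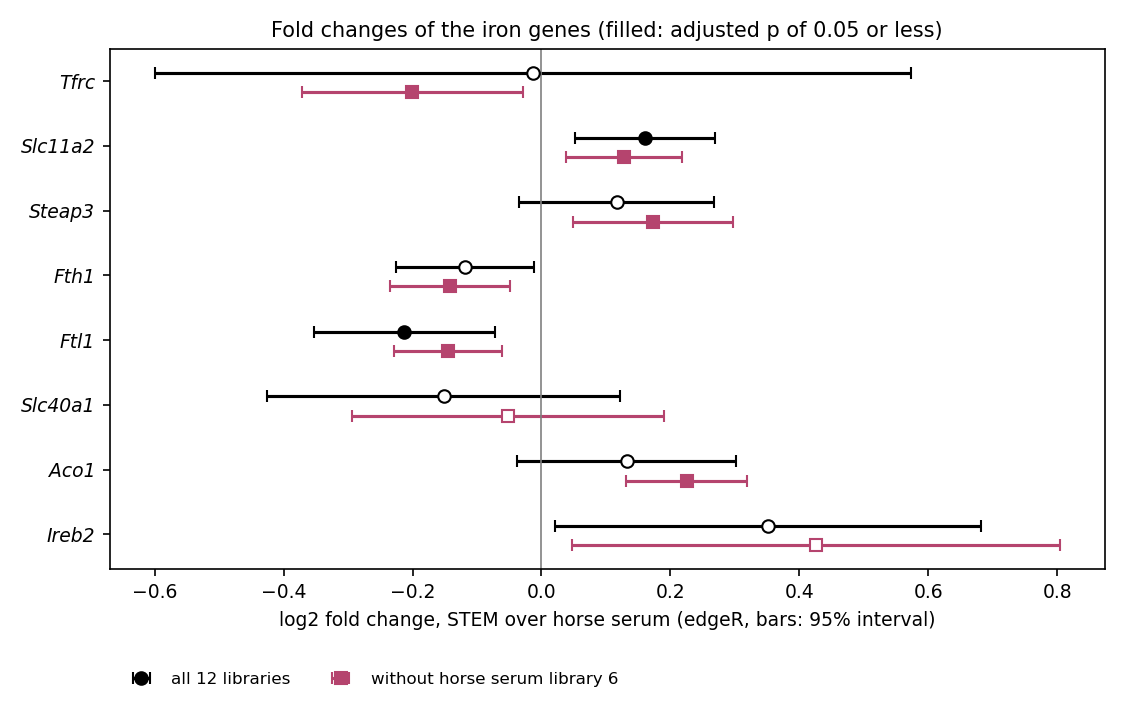
Log2 fold change of each iron gene, STEM over horse serum, from edgeR with all 12 libraries (circles) and without horse serum library 6 (squares), with bars for the 95% interval and filled symbols for an adjusted p of 0.05 or less. With all libraries only Slc11a2 (0.16) and Ftl1 (-0.21) are filled, and without library 6 all but Slc40a1 and Ireb2 are.

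Levels of different genes were compared per length, as TPM (counts scaled by the exon length of the gene and then to a common total). Ftl1 was the most abundant, at 771 TPM (734 to 1164) with horse serum and 726 TPM (680 to 758) with STEM (median and range over 6 libraries). Tfrc at 260 TPM (83.3 to 270) and Fth1 at 249 TPM (241 to 267) followed with horse serum, and their ranges overlapped in both groups. Aco1 and Slc11a2 came next at medians of 25.3 and 24.9 TPM with horse serum and 30.5 and 28.4 TPM with STEM, with overlapping ranges. Ireb2 (13.7 and 16.9 TPM) lay below both in every library, and its range overlapped that of Slc40a1 with horse serum but not with STEM. Slc40a1 (9.90 and 9.16 TPM) and Steap3 (8.40 and 9.70 TPM) were lowest by this length, and their ranges overlapped in both groups. Parts of this order depended on the length used. Taking the longest coding transcript in place of all annotated exons moved the mean over all 12 libraries from 245 to 444 TPM for Fth1, against 234 and 231 TPM for Tfrc, and from 9.996 to 20.8 TPM for Slc40a1, against 16.1 and 20.7 TPM for Ireb2. It also turned the order of Aco1 (29.0 to 26.5 TPM) and Slc11a2 (26.8 to 30.2 TPM).

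**Figure D4:**
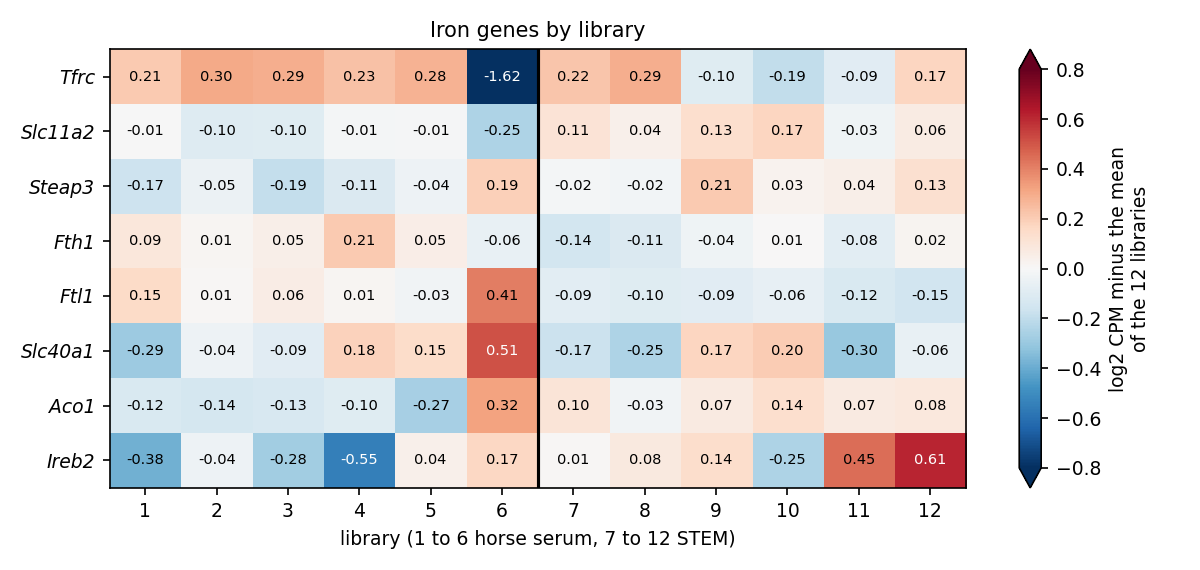
Log2 CPM of the 8 iron genes in each of the 12 libraries, centred on the mean of each gene, with the colour scale in log2 units. The strongest departure is Tfrc in horse serum library 6 (-1.62), and Ireb2 has the widest spread within the STEM libraries (-0.25 to 0.61).

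Genes whose profile over the 12 libraries was most like that of the 2 called genes were listed by the mean absolute difference of centred log2 CPM. For Slc11a2 they were Tm2d2 (0.020), Tmx2 (0.034) and Exoc3 (0.034), and for Ftl1 Arpc1b (0.031), Hp1bp3 (0.039) and Brd8 (0.041). In CPM, library 6 lay below the other 11 libraries for Tm2d2, Tmx2 and Exoc3, as for Slc11a2. It lay above them for Arpc1b, Hp1bp3 and Brd8, as for Ftl1. For Tfrc, added after its values were seen, the most alike were the muscle genes Tmod1 (0.082), Tnnc2 (0.091) and Hspb7 (0.103). Each of these muscle genes was lowest in library 6, with Tnnc2 at 160 CPM there and 490 to 722 CPM in the other 11 libraries. Tnnc2, a subunit of fast muscle troponin, is also among the 8 myotube markers.

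The rest of the iron pathway was read from 6 lists of 92 other genes, of which 81 were tested. edgeR called 34 of the 81 (42.0%), 18 higher and 16 lower with STEM, beside 36.4% of all genes. Without library 6 it called 45, 26 higher and 19 lower, beside 50.8% of all genes. The median log2 fold change of the 81 was 0.05, beside 0.01 over all genes. Hamp, Lcn2, Ftmt and Alas2, that is the hormone hepcidin, lipocalin 2, mitochondrial ferritin and the erythroid heme enzyme, had no count in any library.

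The largest single change was in iron export. Cp, the ferroxidase ceruloplasmin that loads exported iron onto transferrin, was at 173, 253 and 277 CPM with horse serum and 93.0, 99.0 and 114 CPM with STEM. The groups were well apart even though library 6, at 173 CPM, was the lowest horse serum library. Cp fell by 1.25 on the log2 scale (standard error 0.097, edgeR, adjusted p = 4.95e-07), and by 1.33 without library 6. The related ferroxidase Hephl1 changed the other way, from 26.0, 35.2 and 38.5 CPM to 39.5, 48.6 and 54.7 CPM (log2 fold change 0.48, edgeR, adjusted p = 0.000929, and 0.41 without library 6). Furin, a protease that processes hepcidin and hemojuvelin, rose by 0.60 on the log2 scale (0.74 without library 6), and Tmprss6, a protease that cleaves hemojuvelin, rose by 0.93 (0.76 without library 6) on at most 16 counts per library. In all, 4 of the 11 tested genes of export and the hepcidin axis were called, 3 higher and 1 lower, the same share as the 36.4% of all genes. Without library 6, 5 of the 11 were called, beside 50.8% of all genes.

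All 5 called genes among the 11 tested for import and ferrireduction were lower with STEM, beside 36.4% of all genes called and 17.4% called lower. Without library 6 the calls were 4 lower and 2 higher, beside 50.8% of all genes. Vps35, a retromer subunit that recycles endosomal cargo, fell by 0.32 on the log2 scale, from 559, 671 and 688 CPM to 514, 521 and 538 CPM (edgeR, adjusted p = 0.000237). Its groups did not overlap, library 6 was the lowest horse serum library, and without it the fall was 0.37. Scara5, a receptor for ferritin, fell by 0.68 (adjusted p = 0.00153), the ferrireductase Steap2 by 0.19 (adjusted p = 0.00367) and the lipocalin receptor Slc22a17 by 0.46 (adjusted p = 0.0203), all in edgeR. Without library 6 Scara5 fell by 0.69, Steap2 by 0.16 and Slc22a17 by 0.59. Steap2 therefore fell while its relative Steap3 was 0.12 higher on the log2 scale without passing the test on all libraries.

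Among genes that handle stored iron, 3 of 5 tested were called, and 4 of 5 without library 6, beside 36.4% and 50.8% of all genes. Ncoa4, the receptor that delivers ferritin to autophagy, rose from 65.3, 68.2 and 72.0 CPM with horse serum to 75.5, 80.8 and 83.4 CPM with STEM, with no overlap (log2 fold change 0.24, standard error 0.040, edgeR, adjusted p = 0.000292). Pcbp1, a chaperone that loads iron into ferritin, rose by 0.34 (adjusted p = 0.00466, edgeR), and Fbxl5, the iron-sensing subunit of the ligase that degrades iron regulatory protein 2, fell by 0.11 (adjusted p = 0.0459, edgeR). Library 6 lay at 79.1 CPM for Pcbp1, inside the STEM range of 71.8 to 91.8 CPM and above the other horse serum libraries at 55.8 to 63.9 CPM. Without it the log2 fold changes were 0.25 for Ncoa4, 0.42 for Pcbp1 and -0.12 for Fbxl5.

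The genes that use iron moved in both directions, at shares read beside the 36.4% of all genes called (50.8% without library 6). Of 21 tested for mitochondrial iron and iron-sulfur cluster assembly, 8 were called (38.1%, and 11 without library 6), 5 higher and 3 lower, with the cochaperone Hscb (-0.73) and Nubpl (-0.39), which serves the assembly of respiratory complex I, lower and the assembly factor Iba57 (0.44) and the mitochondrial transporter Abcb10 (0.30) higher on the log2 scale. Of 14 tested for cytosolic cluster assembly, 4 were called (28.6%, and 6 without library 6), with Mms19 lower (-0.24) and Nubp2 (0.27), Bola2 (0.25) and Ciapin1 (0.12) higher. Of 19 tested for heme, 10 were called (52.6%, and 13 without library 6), 5 in each direction. The log2 fold changes of the genes named in these lists kept their sign without library 6, and all of them were called there too. Slc48a1, a transporter that releases heme from endosomes and lysosomes, had the lowest adjusted p of the iron genes with all libraries in (Cp had it without library 6), with 60.9, 63.6 and 65.9 CPM with horse serum against 40.1, 42.0 and 45.5 CPM with STEM. The groups did not overlap and library 6, at 65.0 CPM, lay among the other horse serum libraries (log2 fold change -0.60, standard error 0.043, edgeR, adjusted p = 2.16e-07, and -0.59 without library 6). The biliverdin reductase Blvrb fell by 0.51, while the porphyrin transporter Abcb6 and the heme synthesis enzyme Uros rose by 0.41 and 0.44.

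**Figure D5:**
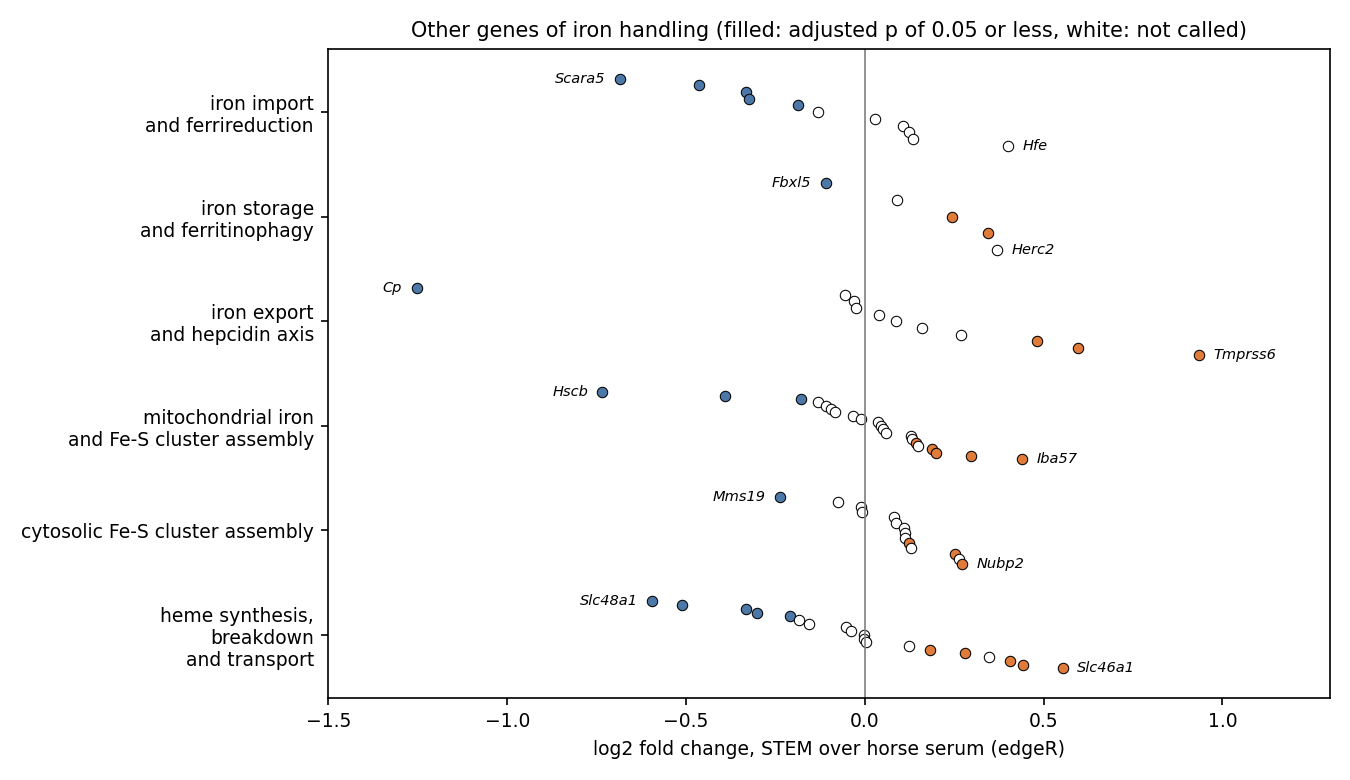
Log2 fold change, STEM over horse serum (edgeR, all 12 libraries), of the tested genes of the 6 other iron lists, 1 point per gene, filled where the adjusted p is 0.05 or less (blue lower, orange higher). The lists reach from -1.25 (Cp) to 0.93 (Tmprss6), and each holds called and uncalled genes.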

How the data were processed

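RNA from C2C12 myotubes treated for 24 h with 4% STEM or 4% horse serum was sequenced in 12 libraries, 6 per group, grouped by the sample labels. The deposited values are raw counts per Ensembl gene. The submitters' processing notes name STAR 2.7.3a, featureCounts 1.6.3, DESeq2 1.26.0 and GRCm38, and the strand setting of the counting is not given in the sources used here. Without it, antisense and overlapping genes cannot be told apart, and the 3 that overlap Ftl1 or Slc11a2 had at most 3 counts.

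Counts were tested with edgeR 4.0.16 (TMM, filterByExpr, robust glmQLFit and glmQLFTest) in R 4.3.3, with Benjamini-Hochberg adjustment over 14175 genes and a call at an adjusted p of 0.05 or less. For log2 CPM the prior count was 2, and permutation tests were exact and two-sided. TPM used exon-union lengths from GENCODE M21, and element sequences came from its transcripts. Ferritin copies were found with blastn. Scripts were tested on simulated data. DESeq2 1.42.0, limma 3.58.1 (voom), other scalings and filters and leaving out each library were the alternatives.

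The 8 genes, the lists and the tests were chosen with earlier results of these data known. The text names all 8 genes, in each list the called genes with the lowest adjusted p (at most 4), the 3 most alike genes for the called member with the largest rise and with the largest fall, and marker genes. The counts of genes with no count and the genes most like Tfrc were looked at after values were seen. Of the list genes, 4 were matched through an older symbol. Protein sequences were not used here, and a further marker list is not reported here.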

Additional observations from a re-analysis of the deposited data

Results flagged for a closer look

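In 10 of 62 groups of 6 libraries, for the iron genes named above, the highest or lowest library stood apart from the others by Dixon's test at 95%. In independent groups about 5% would be flagged by chance. That rate does not apply here, since the groups share the same libraries and the list genes were named because they were called. Of the 10 flags, 9 were horse serum library 6. No share of flags over all genes is given here, but library 6 lay outside the other 11 libraries for 37.1% of all genes tested. Among the 8 iron genes it was lowest for Tfrc (210 CPM, next 743) and highest for Ftl1 (634, next 531), Aco1 (74.6, next 55.7) and Steap3 (28.0, next 23.9). Among the other iron genes it was lowest for Vps35 (559 CPM, next 664), Cp (173, next 240) and Hephl1 (26.0, next 34.4) and highest for Pcbp1 (79.1, next 63.9) and Furin (66.1, next 45.2). The remaining flag was Ncoa4 in STEM library 11 (75.5 CPM, next 80.4). Of the 8 myotube markers, 7 were also lowest in horse serum library 6, and the part of that in these values was not tested.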

How the results depend on the processing

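The direction of Fth1, Ftl1, Slc40a1, Slc11a2, Aco1, Ireb2 and Steap3 was the same under all 19 alternatives to the main edgeR fit, DESeq2 and limma-voom among them, and that of Tfrc was not. Tfrc was at 0.021 with total counts only and 0.10 with limma-voom, and between -0.20 and 0.036 when each library was left out, called only without horse serum library 6. Over the leave-out fits Fth1 ranged from -0.14 to -0.088, Slc11a2 from 0.13 to 0.18, Aco1 from 0.093 to 0.23, Ireb2 from 0.25 to 0.43 and Steap3 from 0.087 to 0.17. Fth1 passed with upper quartile normalization (-0.14) and DESeq2 (-0.12), and Ireb2 with DESeq2 (0.35). Ftl1 did not pass with total counts only (-0.20), nor Slc11a2 with no filter on low counts (0.16, adjusted p = 0.0666, edgeR). That setting adjusts over more genes, and the standard error of Slc11a2 was also larger under it (0.059, beside 0.051 in the main fit). The members called numbered 1 with total counts only, 1 with no filter, 4 with DESeq2 and 1 to 6 when a library was left out, and the other iron genes called numbered 29 to 45. Without library 6 the differences of mean log2 CPM behind the exact permutation tests were -0.21 for Tfrc (0.10 with all libraries), 0.22 for Aco1, 0.41 for Ireb2 and 0.17 for Steap3. The difference in the log2 ratio of Tfrc to the ferritins was 0.27, and from -0.069 (without library 6) to 0.36 when a library was left out. With the longest coding transcript as length, mean levels were 444 TPM for Fth1, 840 for Ftl1, 20.8 for Slc40a1, 30.2 for Slc11a2, 26.5 for Aco1, 20.7 for Ireb2 and 8.08 for Steap3. The cause of the changes of call or direction was not tested. Other scalings moved the median of all genes by at most 0.02. The groups share no replicate numbers, so no paired fit was made.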
